A study of Mus musculus with 15 samples.

Results

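The genes described here encode the proteasome, the immunoproteasome and the factors that activate, inhibit and assemble them. Members were the protein-coding genes whose GENCODE M21 symbol starts with Psma, Psmb, Psmc, Psmd, Psme, Psmf or Psmg followed by a digit, which gave 50 of the 55536 annotated genes that could be matched in the count table. By role these were 7 genes of the core alpha ring, 7 constitutive genes of the core beta ring, 3 immuno-subunits, 6 base ATPases, 11 non-ATPase genes of base and lid, 5 activators, 1 inhibitor, 7 assembly chaperones and 2 tissue-restricted core genes. The last member, Psmc3ip, matched by its letters but encodes a recombination cofactor and no subunit, and is given apart. Of the 50 members 49 passed the filter on low counts, and Psmb11 did not. The RNA came from CD8+ T cells of OT-I transgenic mice, whose T cell receptor recognises an ovalbumin peptide, in 15 libraries. In the Naive group (5 libraries) the cells came straight from OT-I mice without transfer. In the Ag group (5 libraries) OT-I cells were moved into C57BL/6J recipients that then received the peptide antigen with a control antibody, and in the Ag+Costim group (5 libraries) recipients received the same peptide with antibodies that activate OX40 and 41BB, a pair of costimulatory receptors. CD8+ T cells were sorted from spleen and lymph nodes 4 days later, per the labels. All groups share the transgenic receptor of the strain OT-1 Tg C57BL/6J, and the study's methods place the OT-I mice on a Rag1-/- or Rag2-/- background, while the recipients keep their own lymphocytes. The study describes each library as a biological replicate. The labels neither tie a library to 1 animal nor give ages, and the study's methods give 1 age range for all mice together.

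The proteasome is the protease that degrades proteins tagged with ubiquitin. Its barrel-shaped core is built of alpha and beta rings, and the beta subunits Psmb6, Psmb7 and Psmb5 carry the caspase-like, trypsin-like and chymotrypsin-like active sites. Interferon-gamma induces Psmb9, Psmb10 and Psmb8, which replace those 3 subunits in newly built particles and favour peptides that fit MHC class I molecules. Lymphocytes hold immunoproteasomes at rest. A regulatory particle made of a base with ATPases (Psmc) and a lid (Psmd) recognises, unfolds and feeds substrates, while the activators Psme1 with Psme2, Psme3, and Psme4 open the core without ubiquitin. Proliferating cells need the particle to remove cyclins and other cell-cycle regulators.

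Several libraries stood apart from their group before any comparison was made. The libraries held between 4865952 and 25280667 counts on annotated genes, with the lowest in Ag 3, where 16.9% of the reads were counted against 37.4% to 53.6% elsewhere. Input amounts were 1.4 for Ag 2 and 1.8 for Ag 5 against 7 to 10 in the others, in a unit the core facility's table does not state. The summed CPM (counts per 1000000) of 15 cell-cycle genes was 565 to 858 in Naive 1, 3 and 4, 2530 in Naive 2 and 6284 in Naive 5. It was 1280 and 1270 in Ag 1 and Ag 4 but 6157 to 8725 in Ag 2, 3 and 5, and 7948 to 9958 in Ag+Costim. The 7 CD8 T cell markers were detected in all libraries (Cd8a 440 to 936 CPM), while Cd4 stood at 0 to 4.79 CPM. The 7 B cell markers summed to 584 to 974 CPM for Naive, 603 to 1509 for Ag and 546 to 827 for Ag+Costim, most of it Ighm. By edgeR 4 of the 6 B cell markers tested were called higher in Ag vs Naive, against 3.05% of all tested genes, and 1 in Ag+Costim vs Naive. In the latter 3 of 7 CD8 T cell, 2 of 7 myeloid, 1 of 3 CD4 T cell and both NK markers tested were called lower. There 21% of all genes were called higher and 23.6% lower, so its B cell, myeloid and CD4 T cell counts are near the background. The 5 erythroid genes summed to 1304 CPM in Ag 3 against at most 150.2 elsewhere, the 8 myeloid genes to 1010 CPM in Naive 5 against at most 170 elsewhere, and the 2 NK genes to 0 to 41.6 CPM. Lane 2 held the 5 Ag libraries with Ag+Costim 1, 2 and 3, and lane 3 the 5 Naive libraries with Ag+Costim 4 and 5, so lane and group cannot be told apart for Ag against Naive except through Ag+Costim. The part that these features had in the differences below was not tested.

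The promoters shown here belong to the 2 subunit pairs with a promoter in the RefSeq table for both partners and to the activators Psme1 and Psme3, whose levels took different courses. They run from 250 bases before to 50 bases after the annotated start, 5′ to 3′ on the gene's strand, from RefSeq on GRCm38.p6. Capitals mark 4 motifs searched on both strands: the interferon-stimulated response element (ISRE) as GAAA, any 2 bases and GAAA, the interferon-gamma activated site as TTCNNNGAA, the antioxidant response element bound by Nfe2l1 and Nfe2l2 as TGACNNNGC, and CCAAT. None of these motifs overlapped another in the windows printed.
Psmb9 promoter at chr17:34187281-34187580 (minus strand): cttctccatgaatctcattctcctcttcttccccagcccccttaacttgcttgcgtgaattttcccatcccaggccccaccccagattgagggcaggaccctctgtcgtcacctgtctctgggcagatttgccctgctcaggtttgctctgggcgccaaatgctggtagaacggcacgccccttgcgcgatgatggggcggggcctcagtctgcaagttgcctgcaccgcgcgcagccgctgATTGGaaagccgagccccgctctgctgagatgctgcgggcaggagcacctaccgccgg
Psmb6 promoter at chr11:70525107-70525406 (plus strand): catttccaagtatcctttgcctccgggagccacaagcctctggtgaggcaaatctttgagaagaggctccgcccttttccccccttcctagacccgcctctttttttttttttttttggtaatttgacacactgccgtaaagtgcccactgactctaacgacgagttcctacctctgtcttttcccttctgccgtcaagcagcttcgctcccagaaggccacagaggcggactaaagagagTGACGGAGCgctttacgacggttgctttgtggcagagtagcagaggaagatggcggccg
Psmb8 promoter at chr17:34197945-34198244 (plus strand): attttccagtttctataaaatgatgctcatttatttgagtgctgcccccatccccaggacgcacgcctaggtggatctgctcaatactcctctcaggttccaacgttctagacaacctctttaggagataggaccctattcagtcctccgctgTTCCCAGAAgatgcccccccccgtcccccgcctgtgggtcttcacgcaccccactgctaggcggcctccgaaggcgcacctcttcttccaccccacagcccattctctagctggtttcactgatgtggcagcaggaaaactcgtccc
Psmb5 promoter at chr14:54617946-54618245 (minus strand): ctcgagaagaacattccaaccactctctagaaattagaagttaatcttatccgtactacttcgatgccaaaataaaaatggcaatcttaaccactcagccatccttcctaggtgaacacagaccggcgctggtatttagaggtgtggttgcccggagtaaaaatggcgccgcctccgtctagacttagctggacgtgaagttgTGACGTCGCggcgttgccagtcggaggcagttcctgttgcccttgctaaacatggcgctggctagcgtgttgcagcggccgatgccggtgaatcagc
Psme1 promoter at chr14:55578244-55578543 (plus strand): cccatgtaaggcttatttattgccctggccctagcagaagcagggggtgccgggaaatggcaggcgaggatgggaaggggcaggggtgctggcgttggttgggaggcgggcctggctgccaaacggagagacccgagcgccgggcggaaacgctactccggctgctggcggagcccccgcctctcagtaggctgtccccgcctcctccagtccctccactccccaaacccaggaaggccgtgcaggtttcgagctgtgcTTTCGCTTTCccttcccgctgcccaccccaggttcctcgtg
Psme3 promoter at chr11:101315963-101316262 (plus strand): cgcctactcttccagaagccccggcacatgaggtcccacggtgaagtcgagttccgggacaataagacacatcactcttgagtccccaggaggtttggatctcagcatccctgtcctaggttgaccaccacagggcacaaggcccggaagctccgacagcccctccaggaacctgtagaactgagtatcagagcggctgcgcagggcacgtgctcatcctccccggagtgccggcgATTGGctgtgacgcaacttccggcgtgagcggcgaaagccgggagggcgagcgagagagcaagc
Psmb9 lies head to head with Tap1, a subunit of the peptide transporter, and its window held a CCAAT box on the reverse strand. The Psmb8 window held a TTCNNNGAA match, the Psmb5 and Psmb6 windows each a TGACNNNGC match, the Psme1 window an ISRE match on the reverse strand just after the start, and the Psme3 window a CCAAT box on the reverse strand. Across the 45 promoters found for 42 members, the ISRE was in 11.1% against 3.44% of all 32851 promoters in the table, TTCNNNGAA in 6.67% against 8.30%, TGACNNNGC in 13.3% against 12.4% and CCAAT in 33.3% against 37.4%. The 5 members with an ISRE match were Psmb3, Psmd4, Psmd9, Psme1 and Psmg4, none of them an immuno-subunit. The Psmb8 and Psmb9 windows lay inside the GENCODE spans of these genes, so sequence before the GENCODE starts was not searched. A match is a description of letters and no evidence of binding, and the shares were not tested.

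The levels of the subunits are given first, as TPM (transcripts per 1000000, which scale for transcript length and so can be compared between genes). In Naive cells the highest means were Psme1 at 627 ± 51.3 TPM, Psmb8 at 583 ± 86.2 and Psme2 at 573 ± 24.9 (SD, n = 5), an activator pair and an immuno-subunit, ahead of every constitutive core subunit. Neighbours in this order differed by less than the larger of their SDs. The place of Psme1 rests on transcripts annotated as retained introns, which took 92.7% ± 5.90 of its transcript counts in Naive, and Psma3 was led by a transcript annotated for nonsense-mediated decay (Psma3-201), so the TPM of these genes are uncertain as levels of coding RNA. In Ag+Costim Psmb8 was highest (892 ± 38.3 TPM). Next came the alpha subunit Psma7 (776 ± 45.0) and the beta subunit Psmb2 (748 ± 36.2), which lay within their spread of each other. Psma1 (633 ± 28.6), Psmb6 (625 ± 32.3) and Psme2 (624 ± 56.2) followed, again within theirs. The 14 constitutive core subunits include Psmb5, Psmb6 and Psmb7, which immuno-subunits can replace. They covered a range from 93.3 to 411 TPM in Naive 1 and from 215 to 758 TPM in Ag+Costim 1. The coefficient of variation of the 14 stayed between 38.8% and 43.7% in all 15 libraries. The regulatory subunits varied less among themselves, with coefficients from 25.7% to 32.5%. Psmb7 or Psma5 was the lowest core subunit in every library. The thymus-restricted Psmb11 and the germ-cell alpha subunit Psma8 were near the bottom of the scale, with 0 to 3 counts of Psmb11 in every library but Ag 3, which had 18, and 0 to 14 counts of Psma8. Of the 48 members other than these 2 genes, 45 had the same leading transcript in the 3 groups. The others were Psmd8, Psmg4 and Psmd11, whose transcript shares varied widely between libraries of 1 group (Psmd11-214 was at 31.3% ± 24.5 for Naive, 32.8% ± 37.7 for Ag and 4.30% ± 0.842 for Ag+Costim).

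Most core and regulatory subunits moved together from library to library. Psmd4 did not always follow, at 164 CPM in Naive 5 against a Naive mean of 171, and at 143 CPM in Ag 3, its lowest in Ag. The summed CPM of the 14 core and 17 regulatory genes was 4452, 5951, 4988, 4293 and 7638 in Naive 1 to 5. It was 4848, 10360, 7612, 4982 and 12209 in Ag 1 to 5, and between 9606 and 11017 in Ag+Costim. Ag 1 and Ag 4 thus sat inside the Naive range, Ag 2 within and Ag 5 above the Ag+Costim range, and Ag 3 close to Naive 5. Ag 1 and Ag 4 also had the lowest cell-cycle sums of their group, and Ag 2 and Ag 5 the lowest input amounts. In bulk RNA, more cells of one kind and more RNA per cell cannot be told apart.

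**Figure D1:**
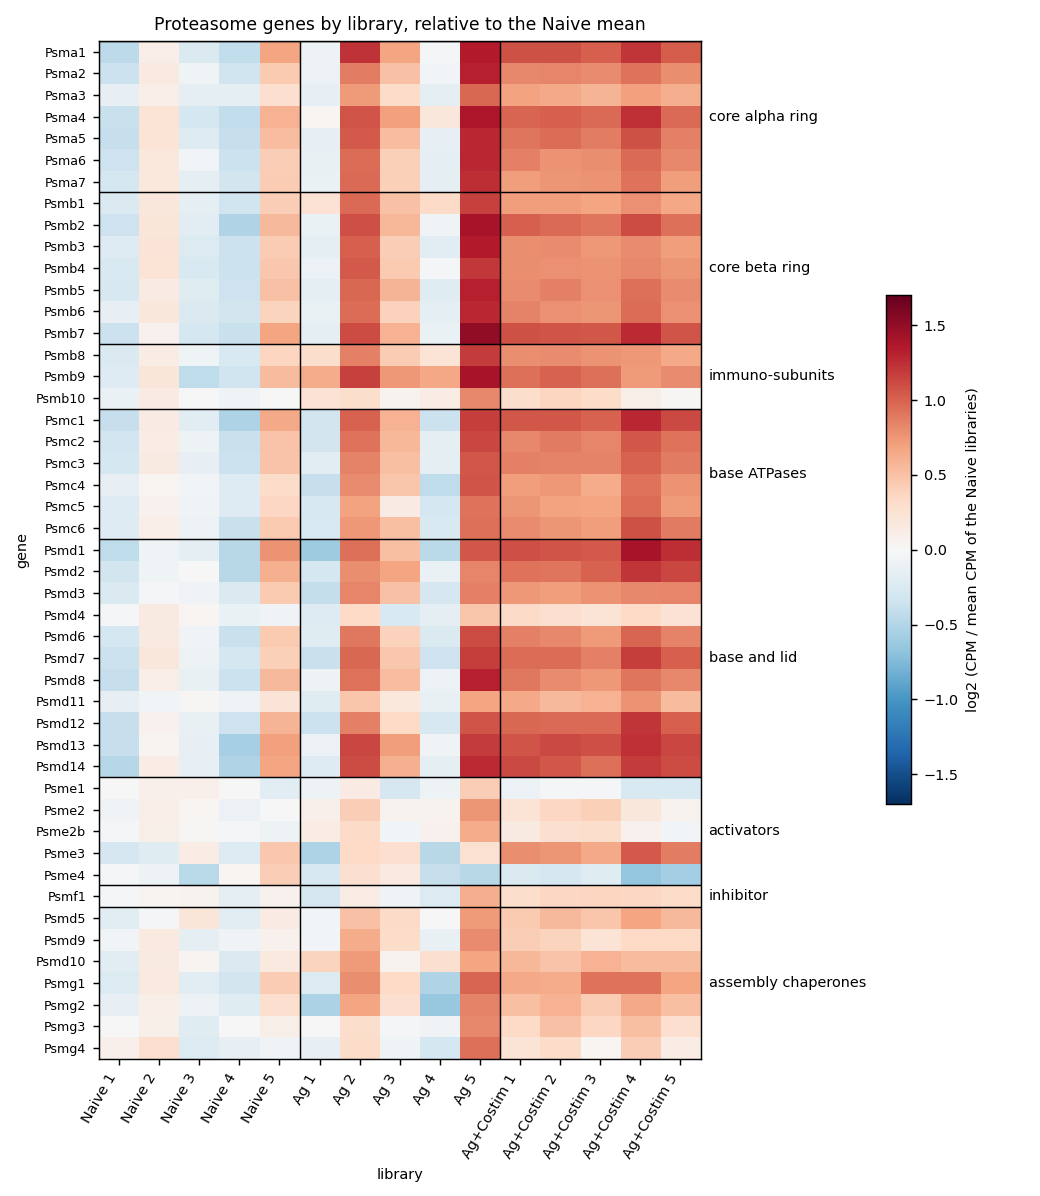
Colour gives the log2 ratio of each gene's CPM in a library to the mean CPM of the 5 Naive libraries, with genes in rows by role and the 15 libraries in columns. Core, base and lid genes are red in Ag 2, Ag 5 and the Ag+Costim libraries and near white or blue in Ag 1 and Ag 4, whereas Psmb10, Psme1 and Psmd4 stay pale in most libraries.

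Antigen alone was compared with Naive (Ag vs Naive) to ask how priming without added costimulation left these genes. The immuno-subunits Psmb9 and Psmb8 rose, as did the constitutive core subunit Psmb1, and no member fell. Psmb9 was at 172, 231, 148, 158 and 290.0 CPM in Naive 1 to 5 and at 310.5, 448, 332, 315 and 529 CPM in Ag 1 to 5. Every Ag library lay above every Naive library, Ag 1 and Ag 4 included. The log2 fold change was 0.95 (SE 0.20) with an adjusted p = 0.0166 by edgeR's quasi-likelihood test with Benjamini-Hochberg adjustment over 17366 genes. Psmb8 was at 492, 636, 552, 488 and 748 CPM in Naive and at 720.2, 1054, 790.1, 686 and 1330 CPM in Ag. Naive 5 overlapped the lowest Ag libraries. Its log2 fold change was 0.65 (SE 0.18, adjusted p = 0.0445 by edgeR). Psmb10 had a log2 fold change of 0.34 (SE 0.14) that did not pass (adjusted p = 0.129 by edgeR). Psmb1, a core beta subunit without an active site, went from 265 ± 60.8 to 427 ± 123 CPM (SD, n = 5 each), a log2 fold change of 0.69 (SE 0.19, adjusted p = 0.0429 by edgeR).

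These 3 calls, of 49 members tested, compare with 3.05% of all tested genes called higher and 3.66% called lower. Psmb9 was the 1 member whose groups did not overlap, against 1.76% of all genes higher without overlap, and 25 members were higher at an unadjusted p below 0.05, against 15.2% of all genes. DESeq2 called 5 members higher (Psma4, Psmb1, Psmb8, Psmb9 and Psmd10) against 6.66% of the genes it tested. Psmb9 was no longer called without Naive 1, Naive 3 or Naive 4 (adjusted p from 0.0545 to 0.0583 by edgeR), and then no member was. Without Naive 5, the library with the naive group's highest cell-cycle sum, 15 members were called, where 12.6% of all genes were called higher, and without each of the 5 Ag+Costim libraries, Naive 2, Ag 2 or Ag 5 in turn Psmb9 was called alone. With lane as a term, or with the 10 libraries of the comparison alone, no member was called, nor was any gene called higher. Without the filter on low counts 0 members and 0.1% of all genes were called higher.

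The constitutive genes had positive log2 fold changes that mostly did not pass. All 14 core genes were between 0.42 and 0.76 with a median of 0.62, and all 17 regulatory genes between 0.070 and 0.68 with a median of 0.45, where the median of all tested genes was 0.082. Psma4, an alpha subunit, had the highest of them at 0.76 and was not called. The catalytic subunit Psmb5 was at 98.1, 130.2, 102, 92.5 and 168 CPM in Naive 1 to 5 and at 105, 232, 177, 103 and 296 CPM in Ag 1 to 5. Ag 1 and Ag 4 lay within the Naive range and Ag 2 and Ag 5 above it, which gave an SE of 0.27 on a log2 fold change of 0.63 (adjusted p = 0.138 by edgeR). Psmb6 (0.58, SE 0.25) and Psmb7 (0.74, SE 0.30) had the same course. At the lower end stood the activators Psme4 (-0.11), Psme3 (0.028) and Psme1 (0.041) and the inhibitor Psmf1 (0.068). The directions of Psme1, Psme3 and Psmf1 turned when library totals alone set the scale.

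Costimulation was then compared with antigen alone (Ag+Costim vs Ag), the contrast in which the groups differ by design in the agonist antibodies. Some libraries of these groups also differed in lane, input amount and marker sums, as given above. No member passed the test in edgeR, against 0.0288% of all genes called higher and 0.00576% called lower, and 5 members were higher at an unadjusted p below 0.05 against 7.28% of all genes. The activator Psme3, which forms a nuclear ring on the core and is known for degrading cell-cycle inhibitors without ubiquitin, had the highest log2 fold change. It was at 154, 279, 271, 160.4 and 265 CPM in Ag 1 to 5 and at 384, 373, 348, 456 and 404 CPM in Ag+Costim 1 to 5. All 5 Ag+Costim libraries were above all Ag libraries. The log2 fold change was 0.80 (SE 0.20) with an adjusted p = 0.0807 by edgeR, and DESeq2 gave 0.83 with an adjusted p = 0.00261. Psmd2, a large scaffold of the base that receives ubiquitin-like shuttles, was at 225, 478, 441, 256 and 489 CPM in Ag and at 522, 519, 549.9, 639 and 606 CPM in Ag+Costim. Its groups did not overlap either, although the gap was small (log2 fold change 0.59, SE 0.24, adjusted p = 0.139 by edgeR and 0.0459 by DESeq2). Its partner scaffold Psmd1 (0.74, SE 0.32) and the lid subunits Psmd12 (0.59, SE 0.27) and Psmd11 (0.38, SE 0.15) were the other 3 below an unadjusted p of 0.05.

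Psme3 and Psmd2 were 2 of 49 members higher without overlap, against 4.23% of all genes, so this count is near the background. DESeq2 called these 2 higher, again near the share of 3.03% of its genes. It called Psmb11 lower, against 17.7%, on the 18 counts of Ag 3. limma voom with a weight for each library called 43 members higher, where it called 31.3% of all genes. Without Ag 2 edgeR called Psme3, Psmd1, Psmd2 and Psmd11 and 5.33% of all genes higher. Without Ag 5 it called Psme3, Psmd11, Psmd12, Psmc5, Psmf1 and Psmg3 and 4.17% of all genes. Without Ag 3 and Naive 5 together, left out after seeing the data, it called Psme3 and 2.88% of all genes. For Psme3 the adjusted p without 1 library ran from 0.0230 to 0.1701 by edgeR.

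The other roles in this contrast had small values. All 31 core and regulatory genes had positive log2 fold changes, from 0.021 for Psmb1 to 0.74 for Psmd1, with a median of 0.33 beside -0.10 for all genes. The base ATPases lay between 0.33 and 0.55 and the alpha ring between 0.20 and 0.33. The immuno-subunits were at 0.097 for Psmb8, -0.072 for Psmb9 and -0.11 for Psmb10, and the interferon-inducible activator pair at -0.16 for Psme1 and -0.048 for Psme2, and none of these passed at an unadjusted p of 0.05. The direction of Psmb9, Psmb10 and Psme2 turned within lane 2. Psme4, a large activator that acts on histones, was lowest at -0.27 (SE 0.18).

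**Figure D2:**
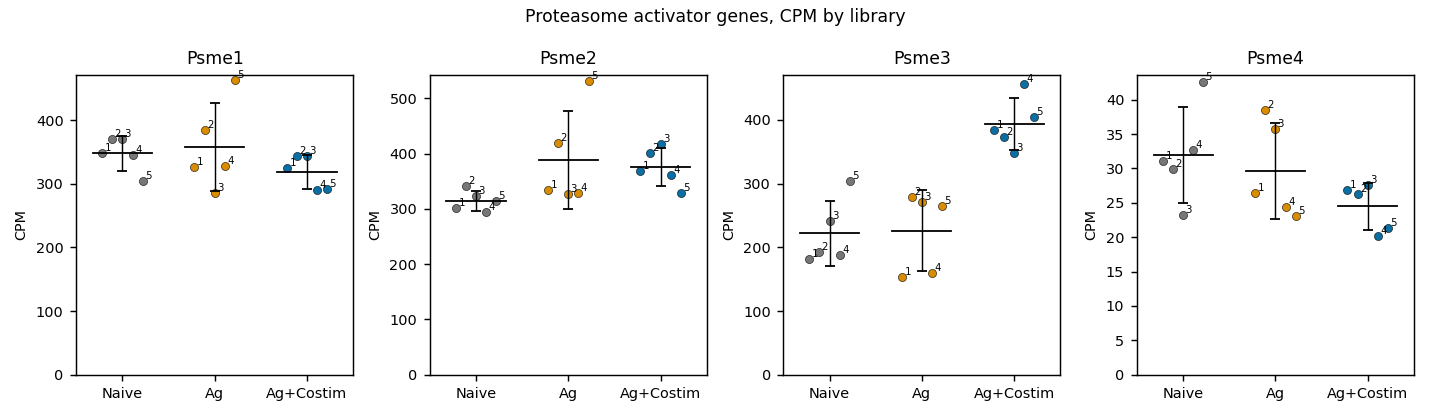
Points give CPM of 4 activator genes in each library, numbered by replicate, with the mean as a bar and the SD as whiskers (n = 5 per group). Psme3 is at 348 to 456 CPM in Ag+Costim and at most 279 CPM in Ag, while Psme1 and Psme2 overlap between all groups.

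Costimulated cells were last compared with Naive cells (Ag+Costim vs Naive), where the constitutive particle rose almost as a whole. Of 49 members tested 38 rose and none fell by edgeR, against 21% of all genes called higher and 23.6% called lower. By role, all 7 alpha subunits (log2 fold changes 0.64 to 1.09), all 7 constitutive beta subunits (0.71 to 1.11), all 6 base ATPases (0.76 to 1.11) and 10 of 11 Psmd genes of base and lid rose (0.62 to 1.18). The exception in the last group was Psmd4, a ubiquitin receptor of the base, at 0.29 (SE 0.14, adjusted p = 0.101 by edgeR). The median of the 31 core and regulatory genes was 0.85 beside -0.076 for all genes. The groups did not overlap for 42 members, against 22.7% of all genes higher without overlap, and DESeq2 called 37 members higher, against 17% of the genes it tested.

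Psmd1 had the highest fold change of the 31 core and regulatory genes. It was at 133, 171, 161, 129.6 and 305 CPM in Naive and at 385, 376, 372, 477 and 429.5 CPM in Ag+Costim. All Ag+Costim libraries were above Naive 5, the highest Naive library (log2 fold change 1.18, SE 0.32, adjusted p = 0.0140 by edgeR). The lid subunit Psmd13 followed at 1.13 (SE 0.28). The trypsin-like subunit Psmb7 went from 90.0 ± 31.3 to 195 ± 12.3 CPM (log2 fold change 1.11, SE 0.30), and Psmb5 and Psmb6 rose by 0.84 and 0.82. Of the immuno-subunits Psmb9 rose by 0.88 (SE 0.20, adjusted p = 0.00724 by edgeR) and Psmb8 by 0.75 (SE 0.18, adjusted p = 0.00917 by edgeR). Psmb10 did not pass, at 164 ± 10.8 CPM in Naive and 192 ± 19.5 CPM in Ag+Costim (log2 fold change 0.22, SE 0.14, adjusted p = 0.180 by edgeR). The recombination cofactor Psmc3ip, no part of the proteasome, rose from 9.48 ± 4.98 to 28.7 ± 2.57 CPM (1.60, SE 0.50). Psma8 had a value of 1.36 (SE 1.09) on at most 14 counts in a library and did not pass.

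Of the 5 activators Psme3 alone passed. It rose by 0.83 (SE 0.20, adjusted p = 0.00886 by edgeR), at 181, 193, 242, 188 and 304 CPM in Naive against 348 or more in every Ag+Costim library. Psme1 was at -0.12 (SE 0.13), Psme2 at 0.25 (SE 0.14), Psme2b at 0.15 (SE 0.12) and Psme4 at -0.38 (SE 0.18), none of them past the threshold. Psme4 was called lower with library totals alone as the scale, by voom, and with the 10 libraries of the comparison. Psme2b is a copy of Psme2 without introns, and its count was 0.45 to 0.48 of the Psme2 count on average in the 3 groups, so reads may be shared between them and both values are uncertain. The inhibitor Psmf1 was at 0.33 (SE 0.14) and did not pass (adjusted p = 0.0684 by edgeR). Of the 7 assembly chaperones Psmd5, Psmd10, Psmg1 and Psmg3 rose, by 0.54, 0.54, 0.77 and 0.40, and Psmd9, Psmg2 and Psmg4 did not pass.

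The count of 38 fell to 23 without Naive 1 and to 23 without Naive 4, where 8.04% and 7.84% of all genes were called higher. It fell to 2 (Psmd2 and Psme3) with lane as a term, where 1.49% of all genes were. Within lane 3, where 2 Ag+Costim libraries meet the 5 Naive libraries, 39 members and 14.1% of all genes were called higher. When library totals alone set the scale the median of all genes moved from -0.076 to -0.23 and the split of all calls from 3648 higher and 4107 lower to 3016 and 5102, while 37 members were still called higher and their median was 0.67.

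**Figure D3:**
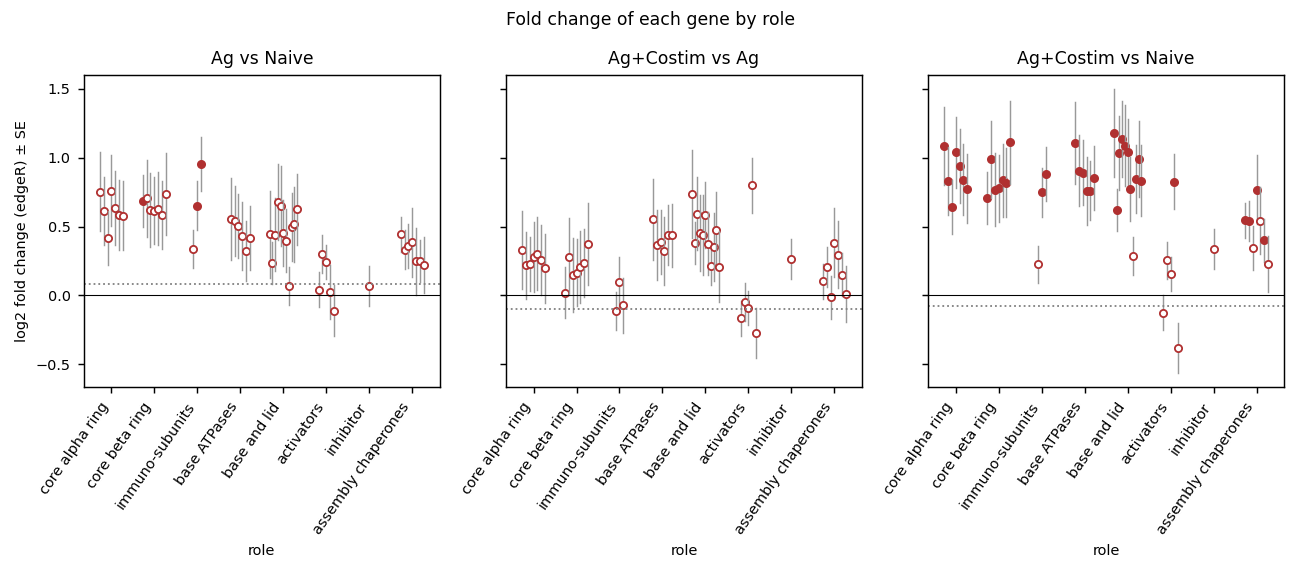
Each point is the edgeR log2 fold change of 1 gene with its SE, in 3 panels for the 3 comparisons and in columns by role, filled where the adjusted p is below 0.05. The dotted line is the median of all 17366 tested genes. In Ag+Costim vs Naive the core, base and lid columns lie between 0.29 and 1.18, above the activators other than Psme3.

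The balance between immuno and constitutive catalytic subunits was measured pair by pair in each library as a ratio of TPM, which does not depend on the scaling between libraries. The ratio of Psmb9 to Psmb6 was, in Naive 1 to 5, 0.50, 0.60, 0.50, 0.49 and 0.64. It was 0.97, 0.71, 0.77, 0.98 and 0.68 in Ag 1 to 5, and in Ag+Costim 1 to 5 it was 0.65, 0.70, 0.68, 0.51 and 0.61. All Ag libraries were above all Naive libraries, with Ag 1 and Ag 4 highest, the libraries with the group's lowest cell-cycle sums. The mean log2 ratio differed by 0.58 between Ag and Naive (exact two-sided permutation test p = 0.00794, the smallest that 5 against 5 libraries can give, adjusted over 9 tests 0.0357). Between Ag+Costim and Ag it dropped by 0.38 (exact permutation p = 0.0159, adjusted 0.0476), in groups that overlapped. Between Ag+Costim and Naive the difference of 0.20 did not pass (exact permutation p = 0.0873, adjusted 0.157).

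The Psmb10 to Psmb7 ratio took another course. It was 2.19, 1.83, 2.33, 2.27 and 1.12 in Naive 1 to 5. It was 2.34, 0.97, 1.16, 2.13 and 1.15 in Ag 1 to 5, and 0.99, 1.04, 1.01, 0.76 and 0.82 in Ag+Costim 1 to 5. All Ag+Costim libraries were below all Naive libraries, with Naive 5 closest, and the mean log2 ratio was lower, with a difference of -1.04 (exact permutation p = 0.00794, adjusted 0.0357). Against Ag the difference was -0.66 and did not pass (exact permutation p = 0.0317, adjusted 0.0714), nor did Ag against Naive at -0.37 (exact permutation p = 0.357, adjusted 0.438). The Psmb8 to Psmb5 ratio was 2.79 ± 0.217 for Naive, 2.99 ± 0.695 for Ag and 2.59 ± 0.122 for Ag+Costim (SD, n = 5 each). Its differences of 0.073, -0.17 and -0.10 on the log2 scale did not pass (exact permutation p = 0.587, 0.389 and 0.111, adjusted 0.587, 0.438 and 0.167). With each of the 15 libraries left out in turn, the Psmb9/Psmb6 call held in 8 for Ag vs Naive and in 7 for Ag+Costim vs Ag, and the Psmb10/Psmb7 call in 8 for Ag+Costim vs Naive. The adjusted p reached 0.0714, 0.0952 and 0.0714 in the others (exact permutation test), among them those without Ag 1, 3 or 4 and without Ag+Costim 1, 3, 4 or 5 and, for Ag+Costim vs Ag, without Ag 2, and these 3 differences kept their sign throughout. With gene counts in place of TPM the 3 calls had adjusted p of 0.0714, 0.107 and 0.0714 by the exact permutation test. The share of Psmb9 counts on its main transcript Psmb9-204 was 72.3% ± 12.8 for Naive, 85.1% ± 5.73 for Ag and 89.6% ± 2.61 for Ag+Costim.

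As a description of all 3 pairs together, the immuno-subunits made up 58.7% ± 1.75 of the summed TPM of the 6 catalytic genes for Naive, 60.7% ± 5.38 for Ag and 55.4% ± 2.01 for Ag+Costim. In Ag the share was 66.8% and 66.2% in Ag 1 and Ag 4 and 56.2% to 57.8% in the others.

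**Figure D4:**
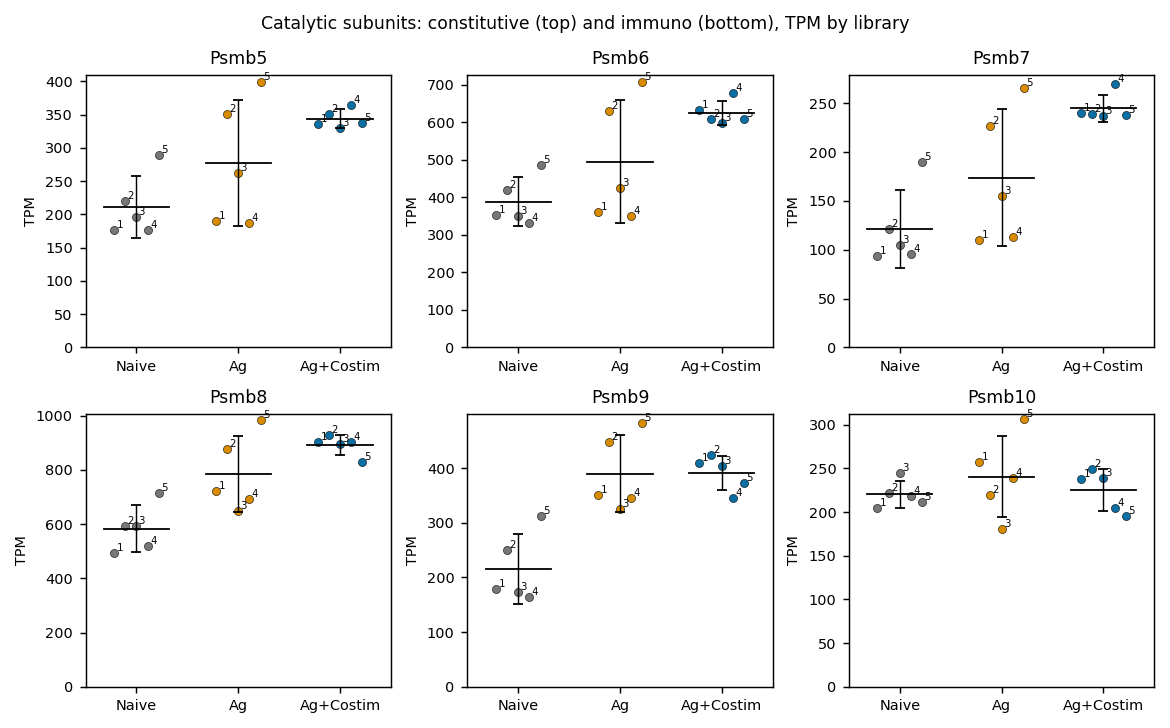
Points give TPM of the constitutive catalytic subunits (top row) and the immuno-subunits (bottom row) in each library, numbered by replicate, with the group mean as a bar and the SD as whiskers. Ag 1 and Ag 4 are within the Naive range for Psmb5, Psmb6 and Psmb7 and above it for Psmb9.

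**Figure D5:**
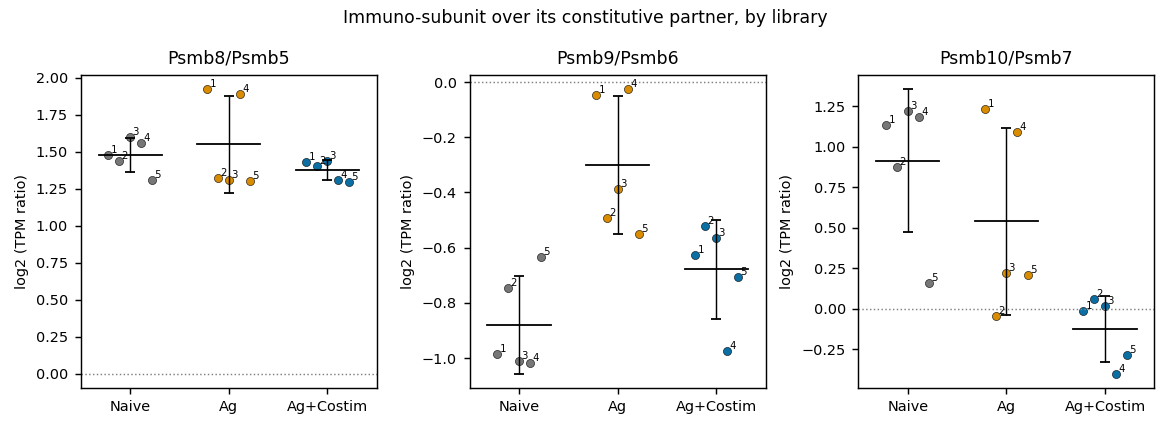
Points give the log2 ratio of an immuno-subunit's TPM to that of its constitutive partner in each library, numbered by replicate, with mean and SD (n = 5 per group), on axes that differ between panels. The dotted line marks equal TPM. Psmb9/Psmb6 is highest in Ag, and Psmb10/Psmb7 is lowest in Ag+Costim.

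Genes that work with the proteasome but fall outside the symbol rule were counted from a list of 28 partners, 27 of which were tested. By edgeR 12 rose and 2 fell in Ag+Costim vs Naive, against the 21% and 23.6% of all genes given above. Those that rose included the deubiquitinases Uchl5 (1.21) and Usp14 (0.86), the proteasome-associated thioredoxin Txnl1 (1.06), the core maturation factor Pomp (0.91), the ubiquitin-activating enzyme Uba1 (0.80), the unfoldase Vcp (0.76) and its cofactor Nploc4 (0.67), and the shuttle Rad23b (0.68). Adrm1 (0.42), a ubiquitin receptor, the small lid subunit Sem1 (0.47) and Ngly1 (0.30) rose too. Those that fell were the transcription factors Nfe2l1 (-0.60) and Nfe2l2 (-0.64), which are known to activate proteasome subunit genes. Nfe2l2 also fell in Ag vs Naive (-0.58, adjusted p = 0.0385 by edgeR), together with the shuttle Ubqln4 (-0.74, adjusted p = 0.00874 by edgeR), and no partner rose there. No partner passed in edgeR in Ag+Costim vs Ag, where 6 were higher at an unadjusted p below 0.05 and the highest values were Rad23b (0.97, adjusted p = 0.0514), Ubqln4 (0.72) and Uchl5 (0.70). DESeq2 gave Rad23b an adjusted p of 9.2e-06 and Ubqln4 one of 0.000452 in this contrast.

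A list of 20 interferon-gamma and antigen-processing genes had no common direction, with medians of -0.027, -0.044 and -0.075 in the 3 comparisons in the order above. In Ag vs Naive Ifng rose (1.98) and the receptor subunit Ifngr2 fell (-2.42). None passed in edgeR in Ag+Costim vs Ag, 3 had an unadjusted p below 0.05, the highest was Irf8 (0.60, SE 0.53) and the lowest Ifngr2 (-2.06, adjusted p = 0.0807 by edgeR and 0.00244 by DESeq2), whose groups did not overlap. Irf8 (1.94), Ifng (1.40), Gbp3 (1.03) and Tap1 (0.36) rose in Ag+Costim vs Naive and Ifngr2 (-4.48), Gbp4 (-0.78) and Irf1 (-0.49) fell, 4 and 3 of 20 genes where 21% and 23.6% of all genes were called, so these counts are near the background. Tap1, the neighbour of Psmb9, was at 0.36 in Ag vs Naive too, without passing (adjusted p = 0.0678 by edgeR), and its partner Tap2 was at -0.024. Of 15 cell-cycle genes 14 rose in Ag+Costim vs Naive, against 21% of all genes, with a median of 2.14, among them Mki67 (2.14), Mcm2 (1.62) and Cdk1 (2.21). In Ag vs Naive and in Ag+Costim vs Ag all 15 had positive values and none passed, also at an unadjusted p of 0.05, with the highest at 1.67 for Birc5 and 1.07 for Bub1.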

How the data were processed

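OT-I CD8+ T cell RNA was made into SMART-Seq v4 and Nextera XT libraries, sequenced as single-end reads. Per the submitters' processing notes the authors used HISAT2 2.1.0, SAMtools 1.9, StringTie 2.1.0, R 4.0.5 and DESeq2 1.30.1 with mm10. The deposited gene and transcript tables hold estimated counts that the authors made with StringTie, whole and unnormalized; the counting settings and strand handling are not given in the sources used here. A deposited core-facility table gives total reads as counts and the aligned reads as percent. The deposited FPKM table was not used, because 2 of its sample columns, those of Ag 1 and Naive 5, held identical values. In the count table these 2 libraries differed, with 2642 and 5786 counts of Psma1. Of 81881 gene entries 55536 matched GENCODE M21, and the rest held 0.0818% of counts. Counts were tested with edgeR 4.0.16 (R 4.3.3): filterByExpr, TMM factors, 1 quasi-likelihood fit over all 15 libraries with group as the sole term, and FDR below 0.05. SE is the fold change divided by the root of F. DESeq2 1.42.0 and limma 3.58.1 (voom) were alternatives, with RLE factors, library totals, no filter, lane, lane-wise fits and each library left out. CPM were computed on TMM-scaled library totals and TPM from the transcript counts and lengths. Subunit ratios were tested by exact permutation. No pair of libraries within a group was a duplicate (lowest chi-square per degree of freedom 5.62). Pairs from different groups were not compared. Scripts were tested on simulated data, for edgeR with a dispersion set below that estimated here. That test therefore does not show the power at the spread of these libraries. Members, roles, lists and tests were chosen with earlier results of these data known. Named were the catalytic and activator genes, Psma8 and Psmb11, the 4 highest and 4 lowest fold changes per comparison, and of the lists the called genes or at most 3 of the highest; other members are named as part of their role group. Single values of 2 listed genes are not reported here.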

Additional observations from a re-analysis of the deposited data

Results flagged for a closer look

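Each member's CPM and each pair's log2 ratio was examined in each group of 5 for a library far from the others, in 159 groups, where chance alone flags about 1 in 20, or 8. There were 12 such values. Ag+Costim 4 was high in 7 of them, at 566 CPM for Psma2, 339 CPM for Psma4, 540 CPM for Psma7, 216 CPM for Psmb7, 351 CPM for Psmc3, 294 CPM for Psmc5 and 295 CPM for Psmd12. All 7 are core or regulatory genes, most of which moved together between libraries. Their flags are therefore not independent, and the number expected by chance is a rough guide only. Naive 5 was high for Psmd1 at 305 CPM and for Psmd3 at 219 CPM. Ag 5 was high for Psmb10 at 289 CPM. Psmb11 was high in Ag 3 at 3.92 CPM and low in Ag+Costim 1 at 0 CPM, where the other 4 libraries had 1 count each.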

How the results depend on the processing

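For the number of members called, Ag vs Naive gave 5 with DESeq2 and 5 with voom, against 3. Of all genes 6.66% and 10.8% were called higher by these methods. Ag vs Naive gave 0 with lane as a term, 0 with the 10 libraries of the comparison and 0 without the filter. The shares of all genes called higher were 0%, 0% and 0.1%. Without Ag 3 and Naive 5 (chosen after seeing the data) 18 members and 15.2% of all genes were called higher. With 1 library left out the count ran from 0 to 15. Ag+Costim vs Ag gave 3 with DESeq2, 43 with voom, 1 without Ag 3 and Naive 5, and 0 to 6 with 1 library left out, against 0. Ag+Costim vs Naive gave 2 with lane as a term and 23 to 43 with 1 library left out, against 38. The 43 were called without Ag 5, where 23% of all genes were called higher. No fit within 1 lane was possible for Ag vs Naive. Deviations of same-numbered libraries from their group means had correlations from -0.324 to 0.47. In Ag vs Naive, replicates 4 and 5 were closest to the same number (0.47 and 0.405, against at most 0.339 and -0.00191 for other numbers). For replicates 1, 2 and 3 another number was closer. The check therefore cannot settle whether the numbers pair the libraries. With the replicate block 4, 0 and 39 members were called higher in the 3 comparisons, against 4.35%, 0% and 23.4% of all genes. The cause was not tested.

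For the ratios, Psmb9/Psmb6 in Ag vs Naive was 0.47 from gene counts (with or without length scaling), 0.66 without Ag 3 and Naive 5 and 0.51 to 0.64 with 1 library left out. In Ag+Costim vs Ag it was -0.39 from gene counts, -0.27 within lane 2, -0.40 without Ag 3 and Naive 5 and -0.44 to -0.30 with 1 left out, and in Ag+Costim vs Naive 0.16 to 0.28. Psmb10/Psmb7 in Ag+Costim vs Naive was -0.95 from gene counts, -1.26 within lane 3, -1.23 without Ag 3 and Naive 5 and -1.23 to -0.96 with 1 left out, and in Ag+Costim vs Ag -0.81 to -0.49. Psmb8/Psmb5 ran from -0.020 to 0.14 in Ag vs Naive and from -0.14 to -0.070 in Ag+Costim vs Naive. Fewer libraries in either group raise the smallest p the exact test can give.

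Signs that turned all belonged to log2 fold changes that were not called. In Ag vs Naive these were Psme3 with the 10 libraries (-0.0017), DESeq2 (-0.026), RLE factors (-0.0075), library totals (-0.070), no filter (-0.10) and voom (-0.21), Psme1 with DESeq2 (-0.0039), lane (-0.17), totals (-0.055), no filter (-0.027) and voom (-0.099), Psmf1 with totals (-0.035), no filter (-0.013) and voom (-0.16), Psma8 with voom (-0.55) and Psme4 without Ag 3 and Naive 5 (0.00063). In Ag+Costim vs Ag they were Psmb9 with lane (0.0025), no filter (0.17), voom (0.21) and within lane 2 (0.017), Psmb10 with no filter (0.13), voom (0.031) and within lane 2 (0.0037), Psme2 with lane (0.028), no filter (0.19), voom (0.14) and within lane 2 (0.043), Psme2b with no filter (0.15), voom (0.031) and within lane 2 (0.011), and with no filter Psme1 (0.071) and Psme4 (0.019). For Ag+Costim vs Naive they were Psme1 with no filter (0.044) and Psme2b with totals (-0.0028). With 1 library left out, in Ag vs Naive Psme3 ran from -0.097 to 0.17, Psme1 from -0.074 to 0.11 (0.12 without Ag 3 and Naive 5), Psme4 from -0.25 to 0.022 and Psmf1 from -0.11 to 0.14, in Ag+Costim vs Ag Psma8 from -0.18 to 1.34, Psmb10 from -0.17 to 0.047, Psmb9 from -0.15 to 0.096, Psme2 from -0.10 to 0.099 and Psme2b from -0.15 to 0.036, and in Ag+Costim vs Naive Psme1 from -0.15 to 0.0046. Of 1079 values for named genes 949 kept direction and side of the threshold. Ag 3, the shallowest library, limits precision for Psma8 and Psmb11.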
